A study of Mus musculus with 79 samples.

Results

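The tumors described here grew from metM-Wnt-liver cells in lean mice, and 4 tumors of sulindac-treated mice (ConSul) were set against 7 tumors of mice that ate the control diet without the drug (Con). They were chosen by the cell line in the sample titles and by the group label, and they are 11 of the 79 tumors of the series. All mice were female C57BL/6J, aged 8 to 9 weeks when randomized and 33 to 34 weeks at euthanasia. The control diet held 10 kcal% fat, and the ConSul mice ate it with 140 ppm sulindac. The cells were injected into mammary fat pad 4, and RNA of the whole tumor at endpoint was measured on 1 Clariom S mouse array per tumor. Sulindac was started after 15 weeks of diet and 5 weeks before the injection, although the sample records place the injection at 5 weeks after the first randomization. Further groups were 7 tumors each of obese mice on a 60% fat diet with (DIOSul) and without (DIO) sulindac in the same line, and the 26 metM-Wnt-lung and 28 E0771 tumors of the other lines, in which the lean groups held 6 ConSul and 6 Con tumors each. metM-Wnt-liver is 1 line, obtained from a liver metastasis of M-Wnt mammary cancer cells, so its tumors are replicates of mice and not of lines. The comparison asks how tumor RNA differs with sulindac in the absence of obesity.

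Sulindac is a nonsteroidal anti-inflammatory drug that inhibits both cyclooxygenases. These enzymes turn arachidonic acid into prostaglandin H2, from which terminal synthases make prostaglandins and thromboxane, and cyclooxygenase 2, the product of Ptgs2, is the inducible form that many tumors express. Prostaglandin E2 is known to dampen antigen presentation and interferon signaling in tumors, and a bulk tumor holds cancer cells together with macrophages, lymphocytes, fibroblasts, vessels and any fat or muscle cut out with it. In such samples fewer cells of a type and less RNA per cell cannot be told apart.

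The values are log2 signals, so a difference of 1 is a 2-fold change. Levels are compared for 1 gene between tumors and never between genes. Of 11 markers of mesenchymal tumor cells or fibroblasts 4 were higher and 1 lower in ConSul tumors (limma adjusted p under 0.05). Their median difference was 0.40, and over all genes 5.76% were higher and 5.65% lower. Without ConSul tumors 1 and 2, described below, it was 3 and 0, and in metM-Wnt-lung tumors 1 was higher and 7 lower (median -1.135). Vim, an intermediate filament gene among these markers, averaged 17.65 ± 0.19 in ConSul and 17.40 ± 0.25 in Con tumors (SD, n = 4 and 7). It did not differ detectably (limma adjusted p = 0.257). The epithelial adhesion gene Epcam averaged 6.61 ± 0.59 in ConSul and 4.87 ± 1.08 in Con tumors (adjusted p = 0.0576), and the epithelial cadherin gene Cdh1 averaged 7.43 ± 0.83 in ConSul and 6.42 ± 0.60 in Con tumors (adjusted p = 0.221).

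The 4 ConSul arrays stood apart from the rest of their line before any gene was compared. The distance between the 1st and 99th percentiles of an array was 13.2495 to 13.38 in ConSul and 12.8895 to 13.0795 in Con tumors, and the groups did not overlap. Among metM-Wnt arrays the 6 metM-Wnt-lung Con arrays shared this spread, and the 10 arrays together ranged over 13.13 to 13.38 against 12.88 to 13.0795 in the other 41 metM-Wnt arrays. E0771 arrays lay at 12.77 to 13.2, below all liver ConSul arrays, and in E0771 the ConSul (13.0595 to 13.2) and Con arrays (13.0295 to 13.169) overlapped. The single lowest value of an array was 2.44 to 2.57 in ConSul and 0.07 to 2.17 in Con tumors, whereas the array medians overlapped (6.42 to 6.665 in ConSul and 6.44 to 6.63 in Con). The lowest value was 2.48 to 2.64 in metM-Wnt-lung Con and 0.07 to 2.53 in the other 41 metM-Wnt arrays. In E0771 Con arrays it was 2.36 to 2.76 and in E0771 ConSul arrays 2.53 to 2.79. Across all genes the ConSul arrays correlated better with the metM-Wnt-lung Con arrays (median Pearson r 0.9792 over 24 pairs) than with the Con arrays of their own line (0.9735 over 28 pairs). The liver Con arrays in turn had a median r of 0.9807 with metM-Wnt-lung ConSul arrays (42 pairs). It was 0.9805 among themselves (21 pairs) and 0.9661 with metM-Wnt-lung Con arrays (42 pairs). Within the line, treatment and array set cannot be told apart, so metM-Wnt-lung values are given beside the lists and most named genes.

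Identity of the line was read from 93 genes at which the metM-Wnt-liver and metM-Wnt-lung tumors of obese mice did not overlap. ConSul 3 and 4 lay on the liver side for 85 and 83 of them, but ConSul 1 and 2 for only 37 and 40. Among Con tumors 6 lay on the liver side for 68 to 92 genes and Con 5 for 35, while the metM-Wnt-liver tumors of obese mice held 82 to 93. The metM-Wnt-lung tumors of lean mice held 2 to 28. Ano1, a calcium-activated chloride channel, showed the split most plainly, with 14.17, 14, 7.32 and 7.35 in the ConSul tumors and 6.41 to 11.99 (median 6.90) in Con tumors, against 11.81 to 14.19 in metM-Wnt-lung ConSul and 11.81 to 13.63 in metM-Wnt-lung Con tumors. ConSul 1, ConSul 2 and Con 5 therefore went against their line label at most of these genes. Their median position was 0.35, 0.39 and 0.43, where 0 is the mean of obese metM-Wnt-lung and 1 that of obese metM-Wnt-liver tumors. The metM-Wnt-lung tumors of lean mice lay at 0.089 to 0.26, so the values of these tumors were intermediate. Values without ConSul 1 and 2 are given beside the lists and the main contrasts, and counts also without Con 5 are given near the end. The plot of array spread and line genes shows both features for every metM-Wnt array.

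**Figure D1:**
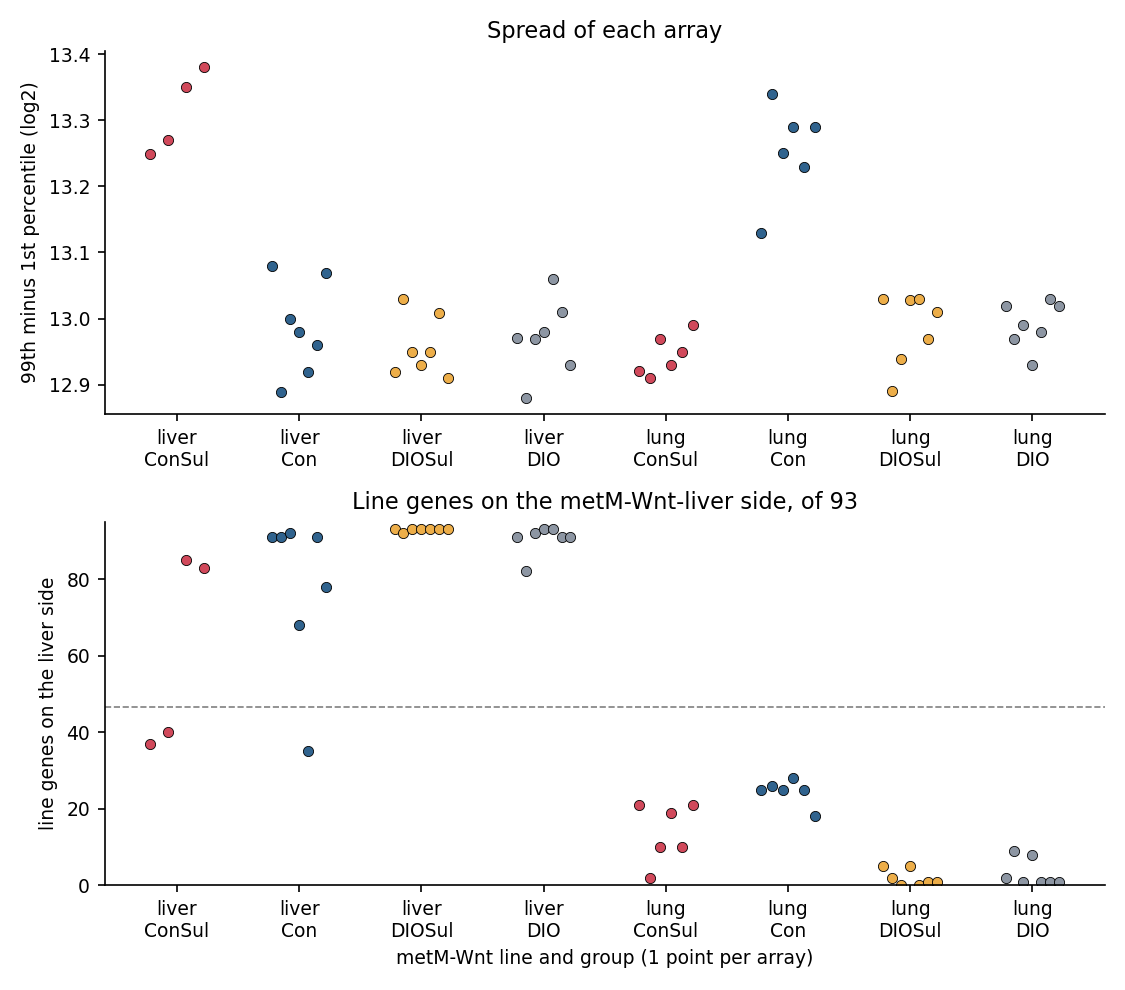
Each point is 1 array of a metM-Wnt group. The upper panel gives the distance between the 1st and 99th percentiles (log2), where liver ConSul (13.2495 to 13.38) and lung Con arrays lie above all others. The lower panel counts the line genes, of 93, on the metM-Wnt-liver side, where ConSul 1 (37), ConSul 2 (40) and Con 5 (35) fall below the dashed line at the middle.

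Of 19505 genes tested with limma, 2226 (11.4%) differed between ConSul and Con tumors at an adjusted p under 0.05, 1123 of them (5.76%) higher and 1103 (5.65%) lower in ConSul. These are called genes in what follows, and the percentages are the background for each list. The median difference of the called genes was 1.05 for those higher and -0.84 for those lower, and 604 and 318 differed by more than 1. At an unadjusted p under 0.05 there were 5191 (26.6%). ConSul and Con tumors did not overlap at 1312 genes (6.73%), 644 of them (3.3%) higher and 668 (3.42%) lower in ConSul, and at 299 genes (1.53%) every ConSul tumor was above, and at 281 (1.44%) below, all 21 other tumors of the line. The median difference over all genes was -0.0225.

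The number of called genes fell when ConSul tumors were left out and when tissue scores entered the fit. Without ConSul 1, 2, 3 or 4 alone, 807, 770, 792 and 853 genes were higher and 699, 724, 761 and 739 lower. The loss was thus similar for ConSul 3 and 4, which lay on the liver side of the line genes. How far the smaller group accounts for calls lost without ConSul 1 and 2 was not tested. Without ConSul 1 and 2, 420 genes (2.15%) were higher and 322 (1.65%) lower, and 661 genes were called with the same sign both times. All 2226 kept their sign, but they were called with these same tumors among others, so this is no independent check. With adipocyte and skeletal muscle scores in the fit 207 were higher and 141 lower, and with a macrophage score as well 7 were higher and 11 lower (this last fit was chosen after the data were seen). The score of a list is the mean log2 value of its members, each centred on its mean over the line. The adipocyte score was 2.96 to 5.01 in ConSul and -2.86 to 3.18 in Con tumors, and the macrophage score was 0.71 to 1.40 in ConSul and -0.74 to 0.11 in Con tumors. The scores thus moved with the groups themselves, and their part in the other differences cannot be told apart from that of the treatment.

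Ghr, the growth hormone receptor, showed one of the clearest differences. It gave 17.98, 18.08, 18.06 and 18.34 in the ConSul tumors and 11.91 to 13.99 (median 13.51) in Con tumors, a difference of 4.87 (SE 0.34, limma adjusted p = 1.06e-09). Every ConSul tumor was above every other tumor of the line. Timp4, an inhibitor of matrix metalloproteinases, gave 6.4, 7.03, 7.11 and 6.88 in ConSul tumors and 1.89 to 3.63 (median 2.46) in Con tumors (difference 4.28, SE 0.27, adjusted p = 1.55e-10). The imprinted proteolipid gene Nnat had 7.18, 7.89, 7.08 and 8.65 in ConSul and 1.22 to 5.87 (median 2.01) in Con tumors (difference 5.03, adjusted p = 2.7e-05), and the natriuretic peptide clearance receptor Npr3 had 8.06, 9.11, 8.45 and 10.42 in ConSul and 3.63 to 6.49 (median 4.72) in Con tumors (difference 4.23, adjusted p = 5.89e-05). None of these overlapped between the groups, and all remained called without ConSul 1 and 2 (adjusted p = 9.67e-07, 8.16e-08, 0.00239 and 0.00239).

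These 4 genes differed in the opposite direction in metM-Wnt-lung tumors. In that line 9.63% of all genes were higher and 10% lower in ConSul tumors. Ghr was 12.79 to 14.46 in ConSul and 17.57 to 18.31 in Con tumors there, a difference of -4.48 (SE 0.54, adjusted p = 5.32e-09), and Timp4, Nnat and Npr3 differed by -4.42, -6.92 and -4.46 (adjusted p = 2.26e-14, 1.08e-10 and 1.21e-07). The levels of Ghr thus fell into a pair of ranges, with liver ConSul and lung Con tumors in the upper one. In obese mice of the liver line Ghr, Timp4, Nnat and Npr3 differed by 0.35, 0.16, 0.12 and -0.67 between DIOSul and DIO tumors (adjusted p = 0.883, 0.963, 0.992 and 0.851). In E0771 tumors of lean mice they differed by -0.25, -0.73, 0.033 and -0.38 (adjusted p = 0.963, 0.581, 0.996 and 0.938).

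Among called genes without overlap between the groups, further large increases were those of Car3, Cd209f, Lep and Lox. Car3, a carbonic anhydrase abundant in fat cells, had the largest difference of the named genes, with 13.98, 15.18, 17.56 and 16.88 in ConSul and 2.84 to 12.88 (median 8.70) in Con tumors (difference 7.5, SE 1.71, adjusted p = 0.00593). Its spread was also wide within Con tumors. Cd209f, a C-type lectin gene of the DC-SIGN family, had 10.93, 8.95, 11.82 and 9.68 in ConSul and 2.83 to 8.51 (median 6.73) in Con tumors (difference 4.05, adjusted p = 0.0219, and 0.0926 without ConSul 1 and 2). Car3 and Cd209f differed by -8.22 and -5.89 in metM-Wnt-lung tumors.

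Among the genes lower in ConSul, Per1, a repressor of the circadian clock that glucocorticoids also induce, had 7.36, 8.63, 9.25 and 9.59 in ConSul and 10.34 to 12.92 (median 12) in Con tumors (difference -2.99, SE 0.54, adjusted p = 0.000998). Cebpd, a transcription factor of the acute phase, had 10.27, 9.78, 10.97 and 9.58 in ConSul and 11.73 to 14.11 (median 12.37) in Con tumors (difference -2.31, SE 0.47, adjusted p = 0.00267). In both, all ConSul tumors lay below all other tumors of the line. Per1 differed by 2.06 in metM-Wnt-lung tumors (adjusted p = 0.00126) and Cebpd by -0.045 (0.96). Without ConSul 1 and 2 the Per1 difference was -2.27 (adjusted p = 0.0544) and that of Cebpd -2.19 (0.0483).

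Cacna1c, the pore subunit of an L-type calcium channel, had 5.18, 5.85, 6.54 and 6.41 in ConSul and 7.5 to 9.53 (median 8.68) in Con tumors (difference -2.69, adjusted p = 9.54e-05). Its metM-Wnt-lung difference was 0.56 (adjusted p = 0.319). Gzmf, a granzyme of killer lymphocytes, had 4.02, 4.64, 4.40 and 4.92 in ConSul and 6.03 to 8.68 (median 7.28) in Con tumors (difference -2.69, SE 0.62, adjusted p = 0.00675), and its metM-Wnt-lung difference was -0.81 (adjusted p = 0.368). Dppa2, a gene of pluripotent cells, had 2.99, 2.91, 2.92 and 2.81 in ConSul and 4.12 to 6.95 (median 5.44) in Con tumors (difference -2.55, adjusted p = 5.72e-05). Its ConSul values lay below the 1st percentile of their arrays (3.1 to 3.15), at the floor of the signal. Col10a1, a short-chain collagen, had 4.81, 4.58, 5.70 and 3.34 in ConSul and 6.09 to 10.08 (median 6.56) in Con tumors (difference -2.59, adjusted p = 0.0102). The unnamed transcript 1810024B03Rik differed by -2.20 (adjusted p = 8.66e-05). When ConSul 1 and 2 were left out, Cacna1c, Dppa2 and 1810024B03Rik remained called (adjusted p = 0.0132, 0.00487 and 0.0133) and Gzmf and Col10a1 did not (0.0861 and 0.0757).

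**Figure D2:**
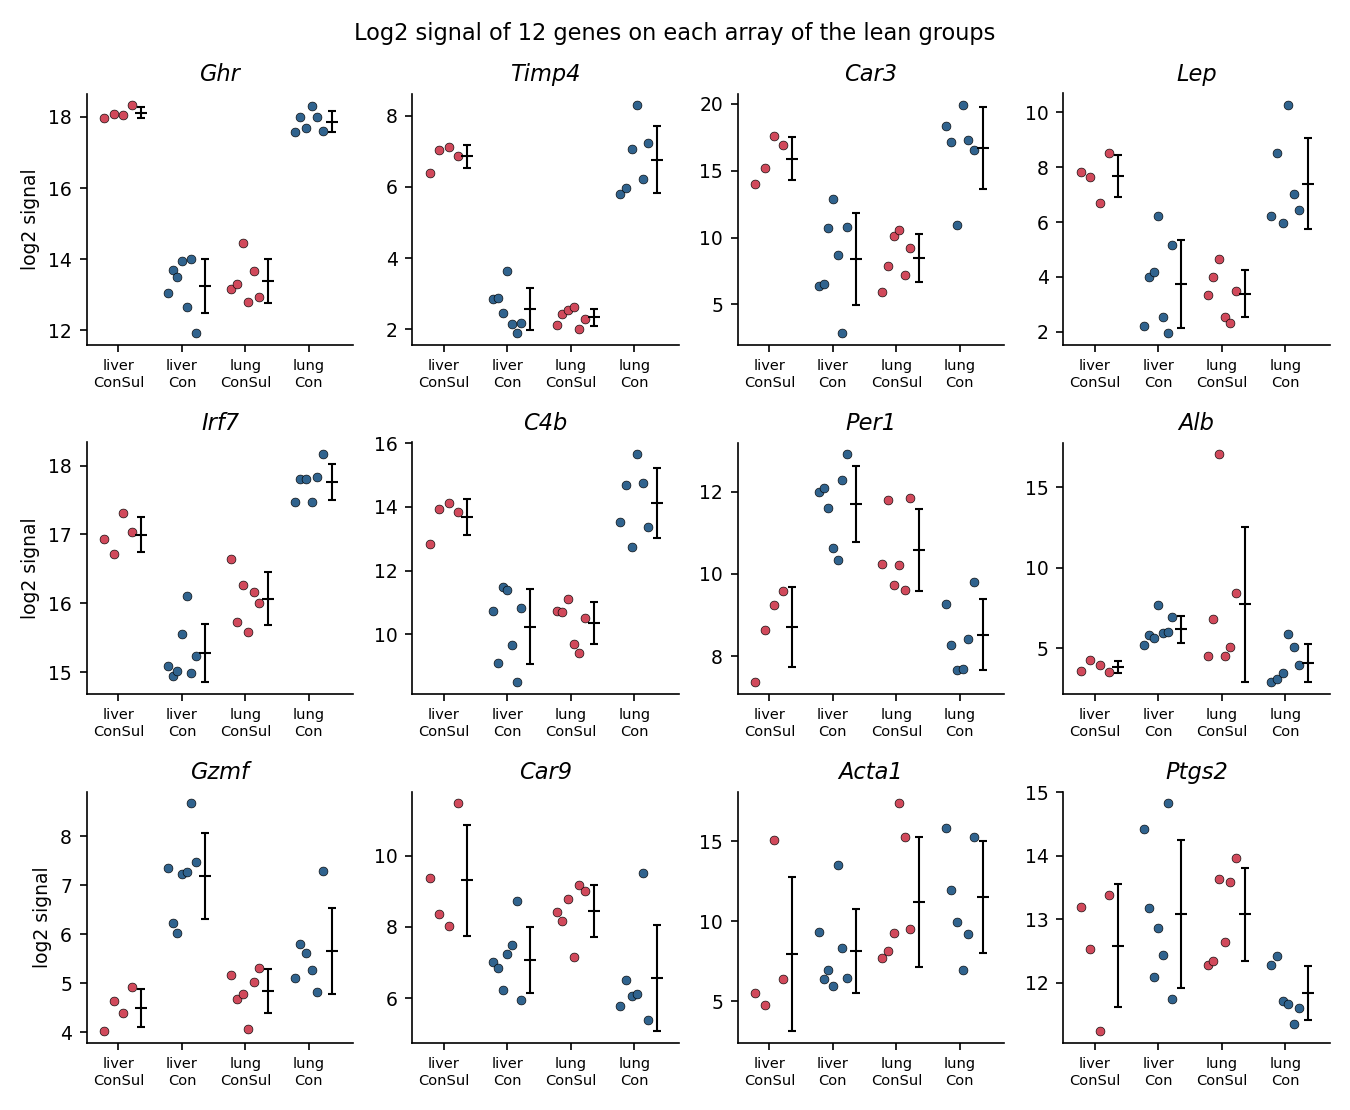
Log2 signal of 12 genes on each array of the lean metM-Wnt groups, 1 point per tumor, with the mean and SD at the right of each group (4 liver ConSul, 7 liver Con, 6 lung ConSul and 6 lung Con tumors). Ghr lies between 17.98 and 18.34 in liver ConSul tumors and at 11.91 to 13.99 in liver Con tumors, with lung Con tumors in the upper range, and Acta1 is high in 1 liver ConSul tumor (15.09).

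The target pathway of the drug was examined next. Ptgs2 did not differ detectably, with 13.19, 12.53, 11.24 and 13.38 in ConSul and 11.75 to 14.83 (median 12.87) in Con tumors (difference -0.50, SE 0.65, adjusted p = 0.67), and Ptgs1 was not analysed here. The prostaglandin synthesis list also holds Hpgd and Cbr1, whose products act on prostaglandins already made, so its counts are not of synthesis alone. Of its 12 measured genes 4 were higher and 0 lower in ConSul tumors, and its median difference was 0.57 against -0.0225 over all genes. Hpgd, the dehydrogenase that inactivates prostaglandin E2, had 7.17, 6.77, 7.37 and 8.18 in ConSul and 3.34 to 6.36 (median 4.18) in Con tumors (difference 3.09, SE 0.50, adjusted p = 0.000391). Tbxas1, thromboxane synthase, had 13.98, 14.29, 14.11 and 13.65 in ConSul and 11.26 to 12.68 (median 12.23) in Con tumors (difference 1.91, adjusted p = 5.72e-05), and Cbr1, a carbonyl reductase that acts on prostaglandin E2, had 9.63, 9.49, 9.97 and 9.76 in ConSul and 7.33 to 8.37 (median 7.93) in Con tumors (difference 1.78, adjusted p = 1.56e-05). The groups did not overlap at these 3 genes, and all were called without ConSul 1 and 2. In metM-Wnt-lung tumors Hpgd, Tbxas1 and Cbr1 differed by -3.87, -1.30 and -2.21, and 5 of the 12 genes were lower and 0 higher in ConSul.

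Of 11 prostanoid receptors and transporters 1 was higher and 2 were lower in ConSul tumors (median 0.092). Ptger4, a receptor of prostaglandin E2, differed by 1.83 (adjusted p = 0.000375), and Ptgfr and Ptgdr, receptors of prostaglandins F2 alpha and D2, differed by -1.53 and -0.64 (adjusted p = 0.0246 and 0.0421). These 3 are the called members and were named after their values were seen. Without ConSul 1 and 2 only Ptger4 was called (adjusted p = 0.00593), and Ptgfr and Ptgdr were not (0.369 and 0.164). In lung tumors 1 of the 11 was higher and 4 were lower (median -0.39), and Ptger4, Ptgfr and Ptgdr differed by -1.01, -0.61 and 0.64 (adjusted p = 0.00809, 0.226 and 0.0127).

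Type I interferon genes, which cells switch on through the receptor of interferon alpha and beta, were among those higher in ConSul tumors. Of 34 measured members 11 were higher and 0 lower, all 34 differences were above 0, and the median was 0.72. Irf7, the transcription factor that amplifies interferon production, had 16.93, 16.71, 17.31 and 17.04 in ConSul and 14.94 to 16.11 (median 15.09) in Con tumors (difference 1.72, SE 0.31, adjusted p = 0.000915). Zbp1, a sensor of Z-form nucleic acids, had 12.80, 13.02, 12.91 and 12.87 in ConSul and 11.29 to 12.13 (median 11.58) in Con tumors (difference 1.26, adjusted p = 0.00443), and Oasl2, of the oligoadenylate synthetase family, had 15.15, 15.17, 15.67 and 15.72 in ConSul and 13.52 to 14.65 (median 14.40) in Con tumors (difference 1.16, adjusted p = 0.00463). All ConSul tumors were above all other tumors of the line at these 3 genes. With ConSul 1 and 2 left out, 5 of the 34 were higher and the median was 0.75, with Irf7 and Oasl2 called (adjusted p = 0.0113 and 0.0172) and Zbp1 not (0.0546). The list ran the other way in metM-Wnt-lung tumors, where 31 of 34 were lower in ConSul and the median was -1.26, and in obese mice of the liver line the median was 0.079 with 0 called.

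Interferon-stimulated genes are known to be switched on through the interferon-stimulated response element, so the promoters of the members were searched for the motif GAAA, any 2 bases, GAAA on both strands, overlapping matches included, from 250 bases before to 50 bases after the start of the gene (RefSeq, build GRCm38.p6). A promoter was on hand for 26 of the 34 members, and 13 of these (50%) held the motif, against 3.94% of the 15691 analysed genes with a promoter. Among the 11 genes higher in ConSul, 8 had a promoter on hand and 2 of these (25%) held the motif. Both are shown because their RNA was higher in ConSul tumors, Ifit3 (plus strand, chr19:34583279-34583578) with 2 matches and Oas3 (minus strand, chr5:120777610-120777909) with 1, and capitals mark the motif. Ifit3, an antiviral protein with tetratricopeptide repeats, differed by 0.99 (adjusted p = 0.0371), and Oas3, an oligoadenylate synthetase, by 1.12 (0.0275). A match is a description of these letters and not of a bound site.
Ifit3: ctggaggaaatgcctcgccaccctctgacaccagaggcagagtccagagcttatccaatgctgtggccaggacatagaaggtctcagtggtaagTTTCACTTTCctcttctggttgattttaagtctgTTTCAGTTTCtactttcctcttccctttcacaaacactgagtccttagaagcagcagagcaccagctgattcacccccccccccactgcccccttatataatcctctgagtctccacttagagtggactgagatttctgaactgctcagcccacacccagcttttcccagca
Oas3: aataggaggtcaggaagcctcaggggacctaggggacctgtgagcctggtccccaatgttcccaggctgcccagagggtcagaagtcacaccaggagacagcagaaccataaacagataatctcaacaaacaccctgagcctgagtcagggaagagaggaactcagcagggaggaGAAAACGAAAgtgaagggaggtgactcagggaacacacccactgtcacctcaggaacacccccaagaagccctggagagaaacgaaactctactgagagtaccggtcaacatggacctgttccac

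Antigen presentation was read from both MHC classes. Of 14 genes of MHC class I 4 were higher and 0 lower (median 0.34, and 0.14 after quantile normalization), and in lung tumors 0 were higher and 4 lower (median -0.11). H2-Q4, a nonclassical class I molecule, had 14.98, 15.42, 15.27 and 14.95 in ConSul tumors, against 13.35 to 14.07 (median 13.53) in Con tumors (difference 1.53, adjusted p = 3.7e-05). H2-T23, which presents peptides to NK cell receptors, had 15.40, 16.09, 15.95 and 15.66 in ConSul tumors, against 13.41 to 14.89 (median 14.34) in Con tumors (difference 1.45, adjusted p = 0.00185). Neither overlapped between the groups. Psmb8, a subunit of the immunoproteasome, differed by 0.87 (adjusted p = 0.00502), whereas the classical genes H2-K1 and H2-D1 differed by 0.11 and 0.0079 (adjusted p = 0.622 and 0.979). H2-Q4, H2-T23 and Psmb8 were called without ConSul 1 and 2, and their differences in the lung line were -1.42, -1.46 and -0.93.

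Of 11 genes of MHC class II 2 were higher and 0 lower (median 0.48). Ctss, the cathepsin that trims the invariant chain, had 17.29, 17.84, 17.56 and 17.27 in ConSul and 16.05 to 16.77 (median 16.50) in Con tumors (difference 1.0, adjusted p = 0.000437). Ifi30, a lysosomal thiol reductase, differed by 0.66 (adjusted p = 0.0494), and this call was lost without ConSul 1 and 2 (0.192). The median of the class II list was also above 0 in metM-Wnt-lung tumors (0.85, with 3 of 11 higher in ConSul) and in metM-Wnt-liver tumors of obese mice (0.79, with 0 called). Of 18 genes of the interferon gamma response 3 were higher and 0 lower (median 0.63), 1 and 0 without ConSul 1 and 2, and in lung tumors 1 was higher and 2 were lower (median -0.36). Ido1, which breaks down tryptophan, differed by 2.97 (adjusted p = 0.00372), and the interferon-induced factors Irf8 and Irgm1 by 0.78 and 0.77 (0.0399 and 0.0482). Ido1 overlapped between the groups, and Irf8 and Irgm1 were not called without ConSul 1 and 2 (0.305 and 0.159).

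Of the pathway lists, complement had the largest share of called genes, as 10 of 12 were higher and 0 lower in ConSul tumors (median 1.30). C4b, the component that the classical pathway cleaves, had 12.85, 13.94, 14.11 and 13.83 in ConSul and 8.48 to 11.48 (median 10.73) in Con tumors (difference 3.45, SE 0.46, adjusted p = 4.56e-05). Cfb, factor B of the alternative pathway, had 13.90, 15, 14.71 and 14.09 in ConSul and 11.57 to 12.72 (median 12.10) in Con tumors (difference 2.27, adjusted p = 3.7e-05), and C3ar1, the receptor of the C3a fragment, had 16.41, 16.54, 16.63 and 15.95 in ConSul and 14.61 to 15.24 (median 14.96) in Con tumors (difference 1.43, adjusted p = 4.56e-05). Without ConSul 1 and 2, 9 of the 12 were higher and the median was 1.26. All 12 were lower in ConSul tumors of the metM-Wnt-lung line (median -1.61), and the obese tumors of the liver line had a median of 0.27 with 0 called.

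Macrophage markers, of which the 3 C1q chains are also complement genes, moved alongside. Of 12 markers 10 were higher and 0 lower (median 1.23), and without ConSul 1 and 2 it was 6 and 0 (median 1.21). Fcgr1, the high-affinity receptor of IgG, had 15.84, 15.94, 16.02 and 15.69 in ConSul and 14.31 to 14.67 (median 14.49) in Con tumors (difference 1.35, SE 0.15, adjusted p = 4.47e-06). C1qb, a chain of the first complement component that macrophages make, had 17.13, 16.99, 17.41 and 16.90 in ConSul tumors, against 15.68 to 16.45 (median 15.92) in Con tumors (difference 1.10, adjusted p = 0.000101). Its partner chain C1qc had 15.46, 15.13, 15.65 and 15.14 in ConSul tumors, against 13.45 to 14.47 (median 13.80) in Con tumors (difference 1.37, adjusted p = 0.000212). No ConSul tumor overlapped a Con tumor at these 3 genes. Of the macrophage markers 11 were lower in ConSul tumors of the metM-Wnt-lung line (median -1.42).

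Of 24 chemokines 4 were higher and 0 lower (median 0.58), 2 and 0 without ConSul 1 and 2, and in lung tumors 0 were higher and 8 lower (median -0.39). Cxcl12, which stromal cells make and which draws CXCR4-bearing cells, had 15.51, 14.75, 15.47 and 15.24 in ConSul and 12.09 to 13.21 (median 12.47) in Con tumors (difference 2.69, SE 0.24, adjusted p = 1.98e-07). Ccl12, a ligand of CCR2, had 16.62, 15.70, 15.95 and 15.52 in ConSul and 13.66 to 14.67 (median 14.33) in Con tumors (difference 1.72, adjusted p = 0.00153). Ccl8 differed by 2.02 (adjusted p = 0.0157, and 0.0735 without ConSul 1 and 2). Cxcl12, Ccl12 and Ccl8 differed by -3.58, -1.54 and -1.43 in metM-Wnt-lung tumors.

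Collagen and matrix genes divided. Of 26 measured, 10 were higher and 1 lower in ConSul tumors (median 0.37), and without ConSul 1 and 2 it was 6 and 0. Bgn, a small leucine-rich proteoglycan, had 17.21, 16.82, 17.46 and 17.01 in ConSul tumors, against 13.53 to 14.67 (median 13.86) in Con tumors (difference 3.17, SE 0.30, adjusted p = 2.41e-07). Dcn, of the same proteoglycan family, had 17.63, 18, 17.97 and 17.38 in ConSul tumors, against 13.96 to 15.89 (median 14.50) in Con tumors (difference 3.01, adjusted p = 5.26e-05). Lox, the oxidase that crosslinks collagen, had 17.21, 18, 17.62 and 18.20 in ConSul and 12.49 to 15.50 (median 14.03) in Con tumors (difference 3.79, SE 0.56, adjusted p = 0.000144). At these 3 genes every ConSul tumor was above every other tumor of the line. The single gene that was lower was Col5a1, a fibrillar collagen chain, with 6.89, 6.42, 7.19 and 6.55 in ConSul and 7.32 to 8.39 (median 7.74) in Con tumors (difference -1.0, adjusted p = 0.036, and 0.221 without ConSul 1 and 2). In metM-Wnt-lung tumors 18 of the 26 were lower and 0 higher (median -1.38), with Bgn, Dcn and Lox at -3.11, -3.11 and -3.35 and Col5a1 at -1.03.

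Adipocyte markers had the largest median of the lists, 3.55, as 11 of 12 were higher and 0 lower in ConSul tumors. Lep, the hormone leptin, had 7.84, 7.64, 6.70 and 8.53 in ConSul and 1.94 to 6.21 (median 3.99) in Con tumors (difference 3.93, SE 0.71, adjusted p = 0.000986). Lipe, hormone-sensitive lipase, had 10.38, 10.85, 10.69 and 11.08 in ConSul and 6.51 to 9.97 (median 7.61) in Con tumors (difference 2.75, adjusted p = 0.00109), and Plin1, which coats fat droplets, had 8.06, 7.85, 6.71 and 9.26 in ConSul and 2.23 to 7.39 (median 4.38) in Con tumors (difference 3.65, adjusted p = 0.00261). The groups did not overlap at Lep, Lipe and Car3, but they overlapped at the other members, and Con 4, with an adipocyte score of 3.18, was above ConSul 3 at 2.96. After removal of ConSul 1 and 2, 6 of 12 were higher. In metM-Wnt-lung tumors 11 of 12 were lower in ConSul (median -4.45).

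Other cell types had fewer called markers. Of 12 hepatocyte markers 6 were lower and 0 higher in ConSul tumors (median -0.73), and 2 were lower and 0 higher without ConSul 1 and 2. In lung tumors 1 was lower and 3 were higher (median 1.20). Alb had 3.55, 4.27, 3.94 and 3.53 in ConSul and 5.21 to 7.67 (median 5.92) in Con tumors (difference -2.34, adjusted p = 0.0144). These ConSul values lie close to the 1st percentile of their arrays (3.1 to 3.15). Among metM-Wnt-lung ConSul tumors Alb was 17.09 in ConSul 3 and 4.5 to 8.4 in the others. Ttr (transthyretin), Ahsg (fetuin A) and Apoa1 (apolipoprotein A-I) differed by -1.18, -1.02 and -0.76 (adjusted p = 0.00855, 0.0108 and 0.0105). Of 15 mammary epithelial markers 3 were higher and 0 lower (median 0.69), Csn3 (kappa casein), Krt19 (a simple-epithelium keratin) and Cldn4 (a tight-junction claudin), by 2.18, 2.75 and 0.96 (adjusted p = 0.0324, 0.0401 and 0.0467). None of these 3 was called without ConSul 1 and 2, and in lung tumors 2 of the 15 were higher and 8 lower (median -1.08).

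Skeletal muscle markers gave 0 calls of 14 (median 0.76), and also 0 in lung tumors (median -1.18). Acta1, skeletal actin, had 5.48, 4.75, 15.09 and 6.39 in ConSul and 5.97 to 13.50 (median 6.96) in Con tumors (difference -0.20, adjusted p = 0.966), and Ckm, muscle creatine kinase, had 7.06, 6.47, 11.05 and 7.23 in ConSul and 6.78 to 8.37 (median 7.39) in Con tumors (0.43, 0.792). ConSul 3 was the sole ConSul tumor high in muscle genes, with a score of 5.01 against -1.69 to -1.25 in the other ConSul and -1.60 to 1.95 in Con tumors. Of 9 T cell markers 0 were called (median 0.69), and also 0 in lung tumors (median -0.18). Cd3e and Cd3d, chains of the T cell receptor complex, differed by 1.40 and 0.94 (adjusted p = 0.0921 and 0.206). Of 12 killer cell effectors, the list of Gzmf, 1 was higher and 1 lower (median 0.35), and 0 were called without ConSul 1 and 2. The higher one was the death ligand Tnfsf10 (difference 1.13, adjusted p = 0.0446), and the granzymes Gzma, Gzmb and Gzmk, named after their values were seen, differed by 2.18, 1.58 and 0.79 (0.0757, 0.0795 and 0.42). In lung tumors 2 of the 12 were higher and 2 lower (median -0.73).

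Of 27 genes of the Wnt pathway, which was active in the tumors that M-Wnt cells came from, 4 were higher and 1 lower (median 0.067), and in lung tumors 1 was higher and 4 were lower (median -0.065). The receptors Fzd7 and Fzd1 and the secreted antagonist Sfrp2 differed by 1.49, 1.26 and 3.20 (adjusted p = 0.00425, 0.0169 and 0.0207), whereas Axin2, a general target of the canonical pathway, differed by -0.034 (0.963). Of the named genes only Fzd7 was called without ConSul 1 and 2 (0.0341). Of 29 genes of mitosis 1 was higher, the checkpoint kinase Bub1 (difference 0.67, adjusted p = 0.0397), and the median was 0.24. Bub1 was not called without ConSul 1 and 2 (0.176), and in lung tumors 3 of the 29 were higher and 1 lower (median 0.023). Of 24 genes of glycolysis and hypoxia 1 was higher (median -0.16), and in lung tumors 17 were higher (median 0.83). This was Car9, the hypoxia-induced carbonic anhydrase, with 9.36, 8.35, 8.04 and 11.48 in ConSul and 5.94 to 8.73 (median 7.01) in Con tumors (difference 2.23, SE 0.70, adjusted p = 0.038). Car9 was not called without ConSul 1, ConSul 4 or any of 4 Con tumors (adjusted p up to 0.18), and its lung difference was 1.89 (0.0263).

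Of 1412 olfactory and vomeronasal receptor genes, which tumors are not known for, 44 were higher and 112 lower in ConSul tumors (median -0.15), and 14 and 33 without ConSul 1 and 2. In lung tumors 153 were higher and 65 lower (median 0.10). When all genes were divided into 4 bins of equal size by their Con mean, the median differences of the bins were -0.019, -0.13, -0.016 and 0.035 in order of rising signal.

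**Figure D3:**
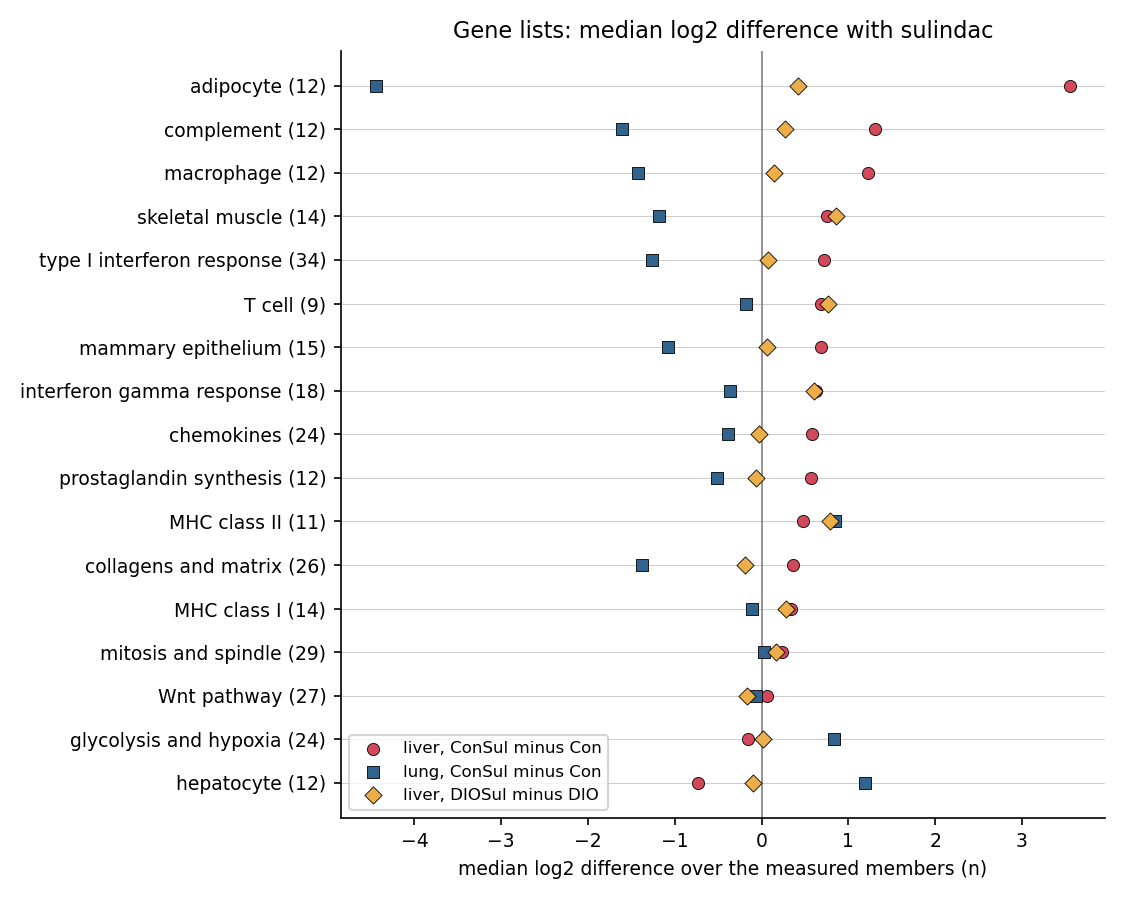
Median log2 difference over the measured members of each gene list (number in parentheses), for liver ConSul minus Con (circles), lung ConSul minus Con (squares) and liver DIOSul minus DIO (diamonds). Adipocyte, complement and macrophage lists lie at 3.55, 1.30 and 1.23 in liver and at -4.45, -1.61 and -1.42 in lung tumors of lean mice.

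Whether the diet changed the response was tested as the ConSul minus Con difference less the DIOSul minus DIO difference. Between DIOSul and DIO tumors of the liver line limma called 0 of 19505 genes (1470, or 7.54%, at an unadjusted p under 0.05). The difference between lean and obese mice was called at 433 genes (2.22%), 253 (1.3%) above and 180 (0.923%) below 0, and without ConSul 1 and 2 at 58 and 35. Timp4, Ghr and Bgn had the smallest adjusted p above 0, at 4.12, 4.51 and 3.81 (adjusted p = 1.88e-07, 2.07e-06 and 2.07e-06). Below 0 they were Dppa2, Olfr71, an olfactory receptor, and Slc30a3, a zinc transporter, at -2.88, -1.69 and -1.37 (adjusted p = 0.00172, 0.00262 and 0.00366). Only the lean side of this contrast holds arrays of the wider spread.

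The sulindac effect of metM-Wnt-liver less that of metM-Wnt-lung was called at 5833 genes (29.9%), 2717 (13.9%) above and 3116 (16%) below 0, and without ConSul 1 and 2 at 2182 and 2233. The arrays of wider spread are the ConSul side in liver and the Con side in lung tumors. An additive offset shared by them therefore adds up in this contrast, and its part was not tested. In the same fit of all 79 tumors 2395 genes (12.3%) were called in liver tumors of lean mice, 1177 (6.03%) higher and 1218 (6.24%) lower. In lung tumors of lean mice 3830 (19.6%) were called, 1878 (9.63%) higher and 1952 (10%) lower. Of the 1177 genes higher in liver ConSul 691 were lower in lung ConSul tumors, which is 58.7% of the liver and 35.4% of the lung list, and of the 1218 lower in liver ConSul 464 were higher in lung ConSul (38.1% and 24.7%). In contrast, 4 genes were higher and 5 lower in both. Over the 19505 genes the differences of both lines correlated at r = -0.66 (Spearman rho -0.56), a description across genes, which are not independent replicates. Liver ConSul less the other liver groups correlated with lung Con less the other lung groups at r = 0.73 (rho 0.64). Of the 59 genes named for the main comparison 53 had the opposite sign in lung tumors. Most of the 59 were picked by their liver difference, and no share over all genes is given beside this count. The contrast had its smallest adjusted p at Timp4, Bgn and Cbr1 above 0, at 8.70, 6.28 and 4.00 (7.27e-21, 4.01e-15 and 4.57e-15). Below 0 they were Atp8a2, a lipid flippase, Gm4922, a predicted gene, and Nprl3, a subunit of an inhibitor of mTORC1, at -2.77, -2.79 and -2.0 (3.03e-10, 1.14e-09 and 1.17e-09).

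**Figure D4:**
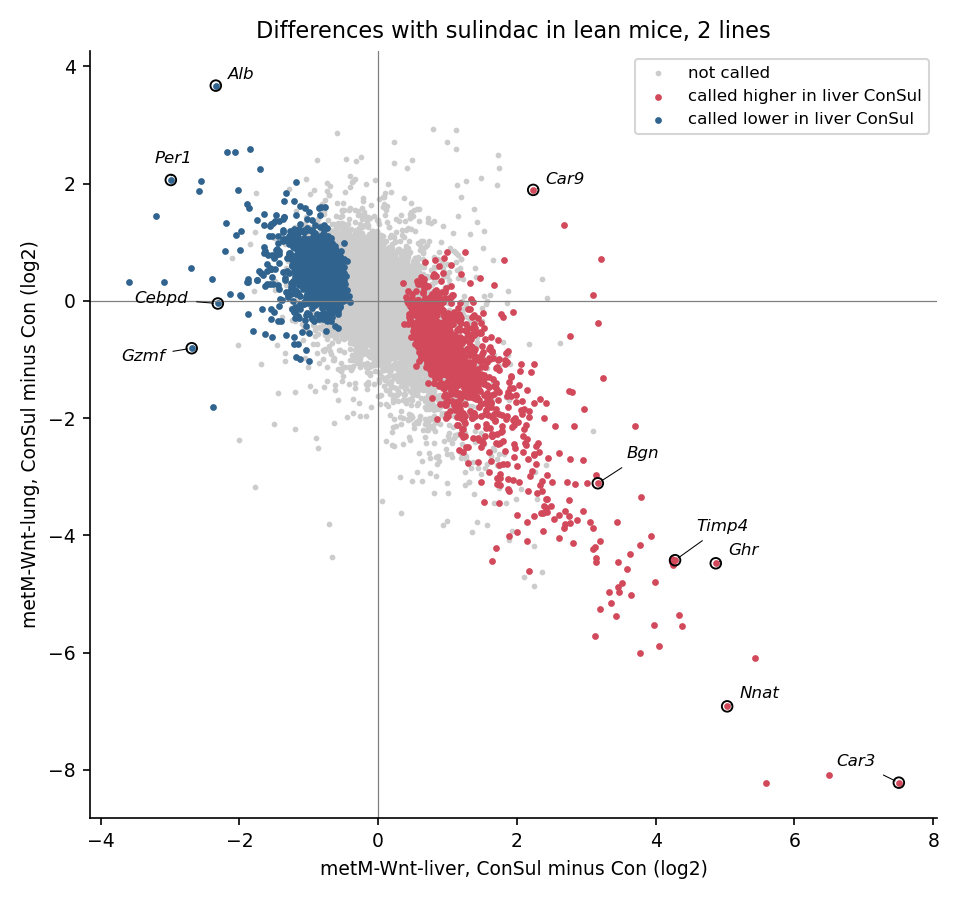
Each point is 1 of 19505 genes, with the ConSul minus Con difference (log2) of metM-Wnt-liver tumors on the horizontal and of metM-Wnt-lung tumors on the vertical axis. Genes called higher (red) and lower (blue) in liver ConSul are coloured. The cloud runs from upper left to lower right (r = -0.66), and Car9 and Gzmf lie in the quadrants where both lines share a sign.

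E0771 tumors of lean mice had 11 called genes (0.0564%), and the liver effect less the E0771 effect was called at 678 (3.48%), 306 (1.57%) above and 372 (1.91%) below 0. Without ConSul 1 and 2 it was 120 and 139. Timp4, Bgn and Trim44, a tripartite motif gene, stood at 5.01, 3.66 and 2.38 (adjusted p = 2.32e-09, 7.19e-06 and 4.64e-05), and the olfactory receptors Olfr1180 and Olfr1022 and the phosphodiesterase Pde10a at -1.79, -1.40 and -2.21 (0.000141, 0.000208 and 0.000208). Over all genes the liver and E0771 differences correlated at r = 0.045.

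An additive offset shared by the liver ConSul and lung Con arrays cancels in the mean of the liver and lung differences. This mean was called at 97 genes (0.497%), 36 (0.185%) higher and 61 (0.313%) lower. Of these 34 were also called in the liver line. Of the 34, 30 had the same sign in both lines, 8 higher and 22 lower in ConSul. Pde10a, which breaks down cyclic nucleotides, had 7.92, 7.71, 7.91 and 7.97 in liver ConSul and 9.17 to 10.21 (median 9.73) in liver Con tumors (difference -1.81, adjusted p = 4.56e-05), a lung difference of -0.51 and a mean of -1.16 (adjusted p = 0.000539). Car9 had a mean of 2.06 (0.0235) and Gzmf of -1.75 (0.0441). Of the 12 killer cell effectors 1 was higher and 2 were lower in the mean, Gzmk at 1.86 (0.00779) on one side, and Gzmf with Gzmc at -2.47 (0.0219) on the other. Genes named after their values were seen were the growth factor receptors Egfr and Pdgfrb, the matrix genes Aebp1 and Col5a1 and the glycine transporter Slc6a9, with liver differences of -1.18, -1.21, -1.32, -1.0 and 0.99 and lung differences of -0.96, -0.62, -0.58, -1.03 and 0.84. Their means were -1.07, -0.92, -0.95, -1.02 and 0.91 (adjusted p = 0.00779, 0.0235, 0.00295, 0.0235 and 0.0202). Of these genes and Pde10a only Pde10a was called in the liver line without ConSul 1 and 2 (adjusted p = 0.00497). In this mean 1 of 24 genes of glycolysis and hypoxia was higher and 2 of 26 collagen and matrix genes and 1 of 11 prostanoid receptors and transporters were lower. Of the 34 type I interferon, 12 complement, 12 macrophage and 12 adipocyte genes limma called 0.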

How the data were processed

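Total RNA of whole tumors was hybridized to Clariom S mouse arrays, and the authors deposited log2 signals made with SST-RMA in Transcriptome Analysis Console. The scale across lines is not given in the sources used here, and the sources name different RNA purification kits. Of 22206 transcript clusters 19572 had 1 gene symbol in the platform table and 2634 were not analysed here. For 55 genes with several clusters the brightest was kept, which left 19505 genes in 79 arrays.

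Groups followed the labels. The 25 metM-Wnt-liver arrays were fitted with 1 mean per group in limma 3.58.1 (R 4.3.3), and contrasts between lines came from 1 fit of 79 arrays. Benjamini-Hochberg adjustment ran over all genes, and genes with an adjusted p under 0.05 were called. Each tumor was from its own mouse, and metM-Wnt-lung values came from the fit of 79 arrays. Up to 8 non-overlapping called genes per direction with the largest difference, up to 3 called members of each described list by adjusted p (otherwise its first 2), Ptgs1 and Ptgs2, and up to 3 genes per direction of each difference contrast were named. Ano1, Vim, Epcam, Cdh1, H2-K1, H2-D1, Axin2, Ifit3 and Oas3 were named beside this rule, after their values were seen. Ptgs1 was not analysed here. Members and lists were chosen with earlier results of these data known. The fit was tested on simulated data. Alternatives covered normalization, filters, array weights, a replicate block, tissue scores and left-out arrays. Promoters came from RefSeq tables of GRCm38.p6.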

Additional observations from a re-analysis of the deposited data

Results flagged for a closer look

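Single tumors lay far from the rest of their group at 5 of the named genes. Chance gives such a value in about 1 in 20 groups, so among 59 named genes some arise by chance alone. Col10a1 was 10.08 in Con 1 and 6.09 to 7.62 in the other Con tumors, and Cebpd was 14.11 in Con 7 and 11.73 to 12.68 in the others. The remaining 3 concerned ConSul 3, where Acta1 was 15.09 (4.75 to 6.39 in the other ConSul tumors), Ckm was 11.05 (6.47 to 7.23) and Csn3 was 6.41 (8.88 to 9.22).

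The sulindac effect in lean mice differed from that in obese mice of the liver line, as the limma contrast itself tested, at 433 genes. It differed from that of metM-Wnt-lung at 5833 genes and from that of E0771 at 678. In the contrast with metM-Wnt-lung an offset shared by the liver ConSul and lung Con arrays adds up, and its part was not tested. Among named genes the lean minus obese difference of the effect was 4.91 for Nnat, 4.51 for Ghr, 4.12 for Timp4, 4.90 for Npr3, 3.49 for Lep, 3.55 for Lox, 2.11 for Cbr1, 1.64 for Irf7 and 1.29 for H2-Q4. For complement, macrophage and chemokine genes it was 1.63 for Cfb, 1.17 for C3ar1, 2.71 for C4b, 1.24 for Fcgr1, 1.04 for C1qb, 1.08 for C1qc, 3.04 for Cxcl12 and 1.86 for Ccl12. For matrix, fat and Wnt genes it was 3.81 for Bgn, 2.52 for Dcn, 2.57 for Lipe and 2.0 for Fzd1. It was -3.01 for Per1, -2.68 for Cacna1c, -2.88 for Dppa2 and -1.55 for 1810024B03Rik. The adjusted p of these 25 genes ran from 1.88e-07 (Timp4) to 0.0449 (Lep). The wider array spread is found on the lean side of each of these contrasts, and its part in them was not tested.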

How the results depend on the processing

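The 1123 genes higher and 1103 lower in ConSul became 733 and 599 when only both compared groups were fitted, 590 and 415 among genes above the median signal, 604 and 318 with a log2 difference of at least 1, 207 and 141 with scores of adipocytes and muscle as covariates, and 36 and 61 in the mean of the liver and lung lines. Alternatives chosen after seeing the data gave 420 and 322 without ConSul 1 and 2, 373 and 299 also without Con 5, and 7 and 11 with adipocyte, macrophage and muscle scores. Leaving out 1 array gave 770 to 1115 and 699 to 1067, with 699 lower without ConSul 1 and 724 without ConSul 2. For the lean minus obese contrast (253 above and 180 below 0) the counts were 138 and 45 above the median signal, 378 and 325 with array weights, 58 and 35 without ConSul 1 and 2, and 62 and 47 also without Con 5. Leaving out 1 array gave 129 to 314 and 69 to 210, with 129 and 69 without ConSul 1 and 100 below 0 without ConSul 4. Above the median signal the liver minus lung contrast gave 1550 and 1378 genes and the liver minus E0771 contrast 115 and 63, and the contrast with E0771 gave 120 and 139 without ConSul 1 and 2. Quantile normalization (1045 and 1073), cyclic loess (1208 and 911) and equal percentiles (996 and 1263) moved no main count by more than 1.5 times, with all-gene medians of -0.045, -0.0046 and -0.077. Mouse numbers did not pair tumors, since ConSul and Con tumors of 1 number correlated at -0.0948 on average (4 pairs), and a replicate block gave 809 and 766 genes, and 186 and 107 for lean minus obese.

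Of 54 named genes called, 13 lost the call without 1 array. These were Ccl8 (ConSul 3), Col10a1 (ConSul 4), Cd209f, Fzd1 and Sfrp2 (ConSul 1 or 3), and Bub1, Car9, Cldn4, Csn3, Ifi30, Irf8, Irgm1 and Krt19 (6 to 9 of the 11 arrays, adjusted p up to 0.18). Cd3e was called without ConSul 1 (adjusted p = 0.044). The sign turned in the mean of the liver and lung lines for Car3 (-0.36), Nnat (-0.94), Timp4 (-0.073), Npr3 (-0.11), Cd209f (-0.92), Lep (-0.041), Alb (0.67), Cbr1 (-0.22), Hpgd (-0.39), Oasl2 (-0.20), Irgm1 (-0.040), H2-T23 (-0.0068), Psmb8 (-0.028), Cfb (-0.10), C4b (-0.16), Cxcl12 (-0.45), Dcn (-0.051), Lipe (-0.32), Plin1 (-0.68), Fcgr1 (-0.29), C1qb (-0.027), Krt19 (-0.46), Cldn4 (-0.39), Ttr (0.42), Apoa1 (0.42), Ahsg (0.19), Fzd1 (-0.61), Sfrp2 (-0.45) and Ptgs2 (0.37). With adipocyte and muscle scores it turned for Krt19 (-0.15), Cd3d (-0.11) and Ptgs2 (0.72), and with a macrophage score as well for Cd209f (-2.20), Irf8 (-0.26), Ifi30 (-0.16), Ccl8 (-0.95), Csn3 (-0.87), Krt19 (-0.68), Cldn4 (-0.055), Apoa1 (0.25), Ckm (-0.13) and Ptgs2 (0.33). Acta1, never called, ran over -2.58 to 0.86 without 1 ConSul or Con array, and was 0.28 with a replicate block, 0.50 with array weights, 0.70 without Con 5, 0.62, 0.86 and 0.32 without ConSul 1, 2 and 4, 2.62 without ConSul 1 and 2 and 3.51 also without Con 5, and Ckm ran over -0.61 (without ConSul 3) to 0.92 without 1 array. The cause of these changes was not tested, beyond the smaller number of tumors or genes in some fits.

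Precision is limited by the 4 ConSul tumors. In simulated data of this comparison 95 of 100 genes changed by a log2 difference of 2 were called, and 60 of 100 changed by 1. Of 19305 unchanged genes 14 were called. The simulated noise was independent between genes and arrays. It held no offset shared by arrays and no tumors intermediate between lines, so these rates do not cover such features of the real arrays.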

Other observations

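The values that follow were chosen after the data were seen. Igf1 and Socs2 were looked at beside Ghr, as single genes and not as a list. Igf1, the growth factor that growth hormone induces, had 12.67, 12.86, 14.27 and 12.28 in ConSul and 7.36 to 11.56 (median 10.04) in Con tumors (difference 3.36, SE 0.60, limma adjusted p = 0.000963), and Socs2, a feedback inhibitor of the receptor, had 8.62, 10.37, 9.30 and 8.79 in ConSul and 6.74 to 8.54 (median 7.59) in Con tumors (difference 1.62, adjusted p = 0.0078). Igf1 is also made by fat and macrophages. Without ConSul 1 and 2 the adjusted p was 0.0137 for Igf1 and 0.0904 for Socs2. The lung line gave differences of -5.15 and -2.73 (adjusted p = 3.46e-07 and 6.18e-08).

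Genes of cholesterol synthesis and uptake are given for both lines, and the difference between the lines was not tested for the list. In metM-Wnt-liver ConSul against Con tumors limma called 0 of 17 (median 0.070), whereas in metM-Wnt-lung ConSul against Con tumors 15 of 17 were higher (median 1.46), and 5 were higher in the mean of both lines. Glucocorticoid-induced Tsc22d3 differed by -1.77 in liver tumors (adjusted p = 0.0508), beside the lower Per1.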
